A study of Homo sapiens with 12 samples.

Results

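Complex I of the mitochondrial respiratory chain was followed here through the ribosome footprints on its nuclear genes. The genes were taken from a ribosome profiling table by their symbols: every row on chromosomes 1 to 22 or X whose symbol starts with NDUF, together with the assembly factors TMEM126A, TMEM126B, ACAD9, ECSIT, TIMMDC1 and FOXRED1. This gave 51 of the 19219 gene rows, of which 45 are NDUF genes and 6 are the named assembly factors. The rule used symbols and chromosomes and no measured value.

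Ribosome profiling sequences the mRNA stretches that ribosomes shield from nuclease, and a gene's footprint density is the amount of such sequence per length of transcript. The cells were HEK293, an established human embryonic kidney line, and the series asks how loss of CNBP, a zinc-finger protein that binds G-rich RNA, bears on translation. The labels give 3 libraries of cells with a CRISPR-Cas9 knockout of CNBP treated with cycloheximide, set against 5 wild-type libraries with cycloheximide. They also give 1 knockout library treated with harringtonine and cycloheximide, set against 3 wild-type libraries with both drugs. Cycloheximide freezes elongating ribosomes. Harringtonine halts ribosomes that are just starting, while those further along can finish. The pair of drugs is called harringtonine below. Both knockout columns bear a single knockout name, the sources used here do not give how many clones it stands for, and nothing states that libraries within a group are from separate cultures.

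Complex I takes electrons from NADH, hands them to ubiquinone and pumps protons across the inner mitochondrial membrane. Its peripheral arm holds the N module, which oxidises NADH, and the Q module, which reduces ubiquinone, while its membrane arm has a proximal and a distal part. Part of the membrane arm is encoded in mitochondrial DNA and made inside the organelle, the remaining subunits are made by cytosolic ribosomes and imported, and a set of assembly factors joins the pieces without staying in the finished enzyme.

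The table holds the authors' mean density for each group and no value per library, so no spread between replicates exists and no test between groups was possible. Each value given below for a group is that authors' mean. Estimated effective reads with cycloheximide were 866149 in the knockout and 2157981 in wild type, and with harringtonine 406303 in the knockout and 1139541 in wild type. Intervals are 95% Clopper-Pearson intervals on effective reads and cover counting error only. A footprint density combines the amount of an mRNA with the number of ribosomes on it, and these cannot be told apart here. CNBP itself had a density of 2.20 in the knockout and 3.73 in wild type with cycloheximide, and 2.36 in the knockout and 3.27 in wild type with harringtonine, so footprints on the targeted gene were present in the libraries labelled as knockout. The epithelial keratins KRT8 and KRT18 and VIM were present in all 4 groups, PAX2 was at most 0.0365, and NEFM and the blood and liver markers PTPRC, CD3E and ALB were listed at 0 in all groups.

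Of the 51 genes, 43 could be compared across groups. They are those with a density above 0 in all 4 groups and a level, the geometric mean of the 4 densities, above the median of 0.114 of all such genes. The assembly factors NDUFAF5 and NDUFAF6 and the membrane-arm subunit NDUFA13 lay below that level. NDUFA1 and NDUFC2-KCTD14 had no knockout value and were listed at 0 in wild type. NDUFV2, which carries an iron-sulfur cluster of the N module, had densities of 0.0251 in the knockout and 0.0184 in wild type with cycloheximide, and 0.0413 in the knockout and 0 in wild type with harringtonine. NDUFA4L2 was listed at 0 in every group. The row of NDUFA7 listed 224 in the knockout and 0 in wild type with cycloheximide, which does not match the log ratio in the authors' deposited table, and it was set aside.

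The compared genes had densities well above that of the typical gene. With cycloheximide their median density was 0.416 in the knockout and 0.739 in wild type, where the medians of all 6045 genes compared were 0.216 and 0.272 for the same groups. With harringtonine their median was 0.642 in the knockout and 0.671 in wild type, beside 0.25 and 0.297 for all genes. Of the 43 genes, 33 lay in the upper part of the level range, above the median of the 6045 genes. Density is per length, and 22 of the 43 had a listed transcript of at most 1666 bases, beside 886 of the 6045. Median effective reads were closer to those of all genes compared. With cycloheximide they were 31.3 in the knockout and 133 in wild type, beside 33.3 and 96.0. With harringtonine they were 20.5 in the knockout and 42.9 in wild type, beside 16.5 and 37.5.

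The level differed widely from subunit to subunit. The highest density divided by the lowest was 227 in the knockout and 81.3 in wild type with cycloheximide, and 145 in the knockout and 44.6 in wild type with harringtonine. NDUFS5, a small accessory subunit on the intermembrane-space side of the proximal arm, was the most densely read gene in the knockout with either drug and in wild type with cycloheximide. In wild type with harringtonine NDUFS7, at 7.75, was just above NDUFS5, at 7.53. The low end was held by TMEM126A in the knockout with cycloheximide, at 0.0271, by NDUFA11 in wild type with cycloheximide, at 0.13, and in the knockout with harringtonine, at 0.0836, and by TMEM126A in wild type with harringtonine, at 0.174.

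**Figure D1:**
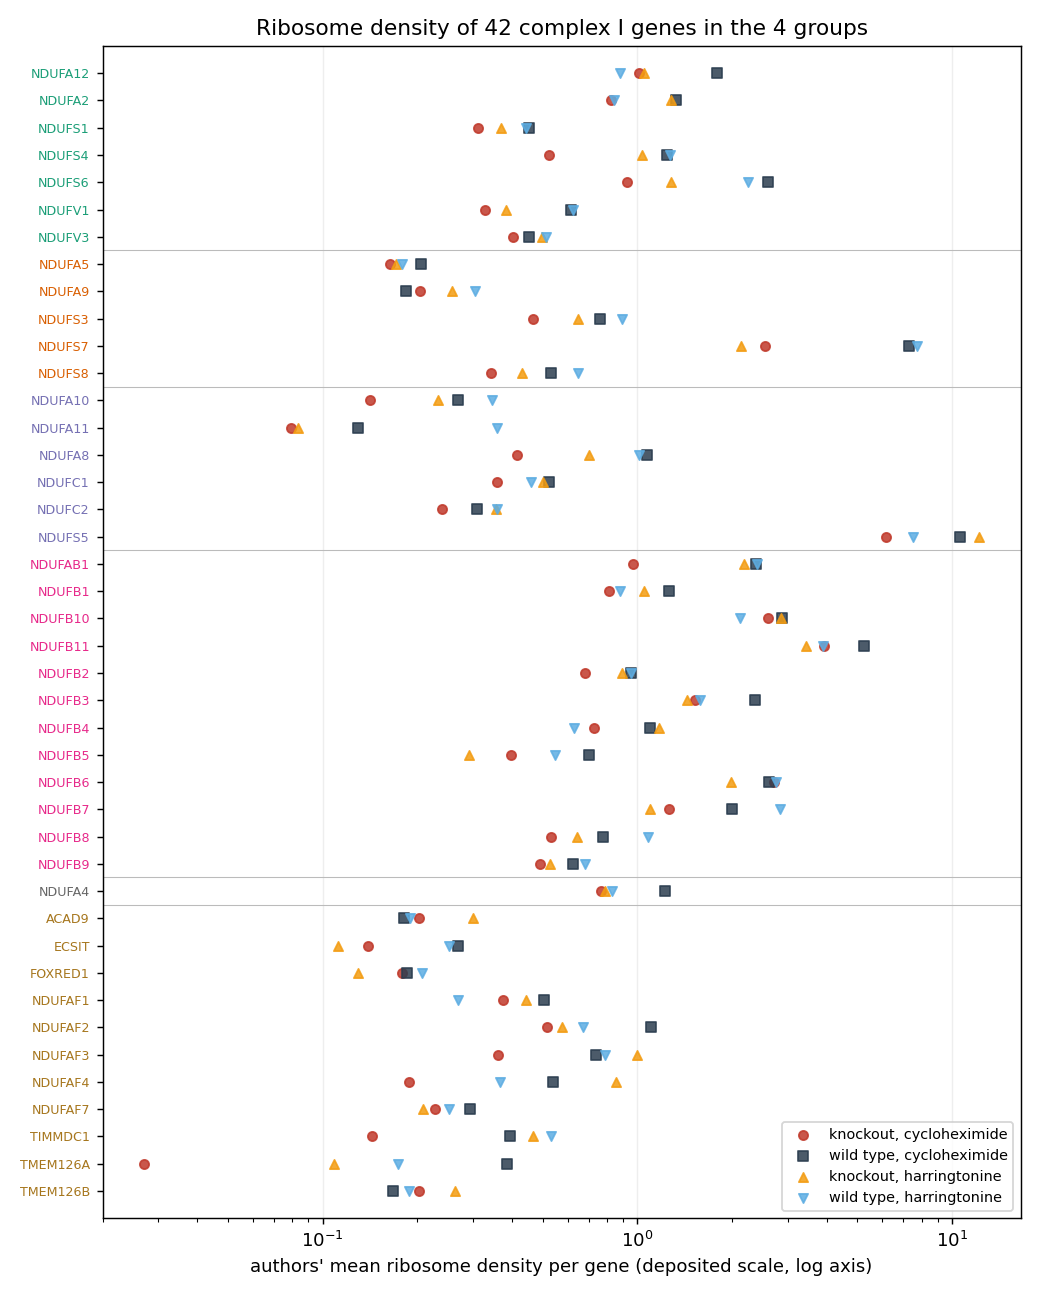
Mean footprint density of 42 of the 43 compared complex I genes (log axis, in the authors' unit) in the 4 groups, ordered by role; points are the authors' group means and have no error bars because no value per library was used. NDUFS5, NDUFS7 and NDUFB11 stand at the high end, and TMEM126A in the knockout with cycloheximide is the lowest point, at 0.0271.

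Only a few genes supplied much of the signal. NDUFS7, NDUFS5 and NDUFB11 together held 32.7% of the effective reads of the complex I genes in the knockout and 41.0% in wild type with cycloheximide, and 28.6% in the knockout and 40.8% in wild type with harringtonine. NDUFS7 alone held 16.97% (15.5% to 18.5%) in the knockout and 27.7% (26.8% to 28.6%) in wild type with cycloheximide. With harringtonine it held 11.8% (10.1% to 13.7%) in the knockout and 30.7% (29.1% to 32.3%) in wild type. Its share was thus lower in the knockout with each drug, beyond counting error.

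Taken as a share of all footprints, the 48 usable complex I rows held 0.292% (0.281% to 0.304%) in the knockout and 0.468% (0.459% to 0.477%) in wild type with cycloheximide. With harringtonine they held 0.316% (0.299% to 0.334%) in the knockout and 0.302% (0.292% to 0.312%) in wild type. The MTRNR2L family and C16orf93 take a large part of all reads and differ between groups. Without them the shares were 0.497% in the knockout and 0.688% in wild type with cycloheximide, and 0.498% in the knockout and 0.416% in wild type with harringtonine.

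Ratios between groups are given as log2 of knockout over wild type minus the median of the 6045 genes, which was -0.44 with cycloheximide and -0.28 with harringtonine. A negative value therefore means lower in the knockout than the median gene. A gene is counted as lower or higher when this relative ratio is at least 2-fold. A summed ratio was taken on the same scale, from density times listed transcript length added over the compared complex I genes. It was -0.37 with cycloheximide and -0.19 with harringtonine. For harringtonine this sign is the opposite of that of the shares above, because the denominators differ.

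With cycloheximide, complex I genes were mostly on the low side in the knockout. Of the 43 genes, 30 lay below the median gene, where 50% of all genes do, and 13 lay above it. Their median was -0.22. TMEM126A, NDUFS7, NDUFAF4, NDUFS6 and TIMMDC1, 5 genes in all, were lower by at least 2-fold, beside 3.24% of all genes, and 0 were higher by that much, beside 4.43%. At a 1.5-fold threshold 11 were lower, beside 12.8%, and 3 were higher, beside 15.8%. The counting interval lay below 0 for 12 genes, beside 14.9% of all genes, and above 0 for NDUFB6 only, beside 14.3%.

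Highly read genes as a whole had lower ratios in the knockout with cycloheximide. With the 6045 genes split by level into 10 bins, the median ratio was 0.17 in the lowest bin and -0.23 in the highest. When each gene was centred on genes of like level, the complex I median was -0.05, with 26 genes below and 17 above. TMEM126A alone was then lower by at least 2-fold, beside 3.94% of all genes so centred. Most of the distance from the median gene was thus also present in genes of like level.

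NDUFS7 carries the iron-sulfur cluster next to the ubiquinone site and spans chr19:1383526-1395583 on the plus strand of hg19. Its density was 2.54 in the knockout and 7.29 in wild type with cycloheximide, a relative ratio of -1.08 (-1.23 to -0.93). With harringtonine it was 2.13 in the knockout and 7.75 in wild type, a relative ratio of -1.58 (-1.83 to -1.33). It was the only complex I gene lower by at least 2-fold with both drugs, a pattern seen in 0.331% of all genes. On the listed transcript length it had 429 effective reads in the knockout and 2798 in wild type with cycloheximide, and 151 in the knockout and 1056 in wild type with harringtonine. Centred on genes of like level, its ratios were -0.85 and -1.46, so with cycloheximide it then fell short of the 2-fold threshold.

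The other subunits of the Q module described here were closer to the median gene. NDUFA9, an accessory subunit at the junction with the membrane arm, lay above it with cycloheximide, with 0.204 in the knockout and 0.184 in wild type, at 0.59 (-0.08 to 1.23). With harringtonine NDUFA9 had 0.258 in the knockout and 0.304 in wild type, at 0.05 (-0.89 to 0.92). NDUFS3, NDUFS8 and NDUFA5 had ratios of -0.26, -0.19 and 0.11 with cycloheximide, each with an interval that holds 0. The median of the 6 Q module genes was -0.22 with cycloheximide and -0.24 with harringtonine. Centred on genes of like level these medians were -0.073 and -0.13.

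In the N module 6 of 7 compared genes lay below the median gene with cycloheximide, with a median of -0.38, and 3 of 7 did with harringtonine, with a median of 0.03. Centred on genes of like level, 6 of 7 lay below with cycloheximide, with a median of -0.15, and 2 of 7 with harringtonine, with a median of 0.14. NDUFS6, a zinc-binding accessory subunit, had 0.927 in the knockout and 2.60 in wild type with cycloheximide, at -1.05 (-1.53 to -0.59), and 1.27 in the knockout and 2.24 in wild type with harringtonine, at -0.53 (-1.22 to 0.11). NDUFS4, an accessory subunit whose loss causes Leigh syndrome, had 0.525 in the knockout and 1.24 in wild type with cycloheximide, at -0.80 (-1.57 to -0.09). With harringtonine its ratio was -0.01. NDUFS1, the largest subunit of the module, was among the most deeply read genes and lay near the median gene with both drugs. It had 0.311 in the knockout and 0.454 in wild type with cycloheximide, at -0.10 (-0.36 to 0.15), and 0.369 in the knockout and 0.442 in wild type with harringtonine, at 0.03 (-0.37 to 0.41). NDUFV1, which binds NADH, was at -0.46 (-1.14 to 0.17) with cycloheximide, and NDUFV3 was the only N module gene above the median gene there, at 0.27.

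The catalytic core is taken here as 7 nuclear genes of the N and Q modules. Most of them encode subunits that hold the flavin, iron-sulfur clusters or the ubiquinone site. All 6 of the compared genes of this core lay below the median gene with cycloheximide, between -1.08 for NDUFS7 and -0.10 for NDUFS1. They did so too when centred on genes of like level, with a median of -0.23. With harringtonine 5 of the 6 lay below it, and NDUFS1 was at 0.03. The harringtonine median was -0.36, or -0.25 when centred on genes of like level. With harringtonine NDUFS7 was the only one whose interval lay below 0, and NDUFS1, NDUFV1, NDUFS3 and NDUFS8 had intervals that hold 0 with both drugs.

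**Figure D2:**
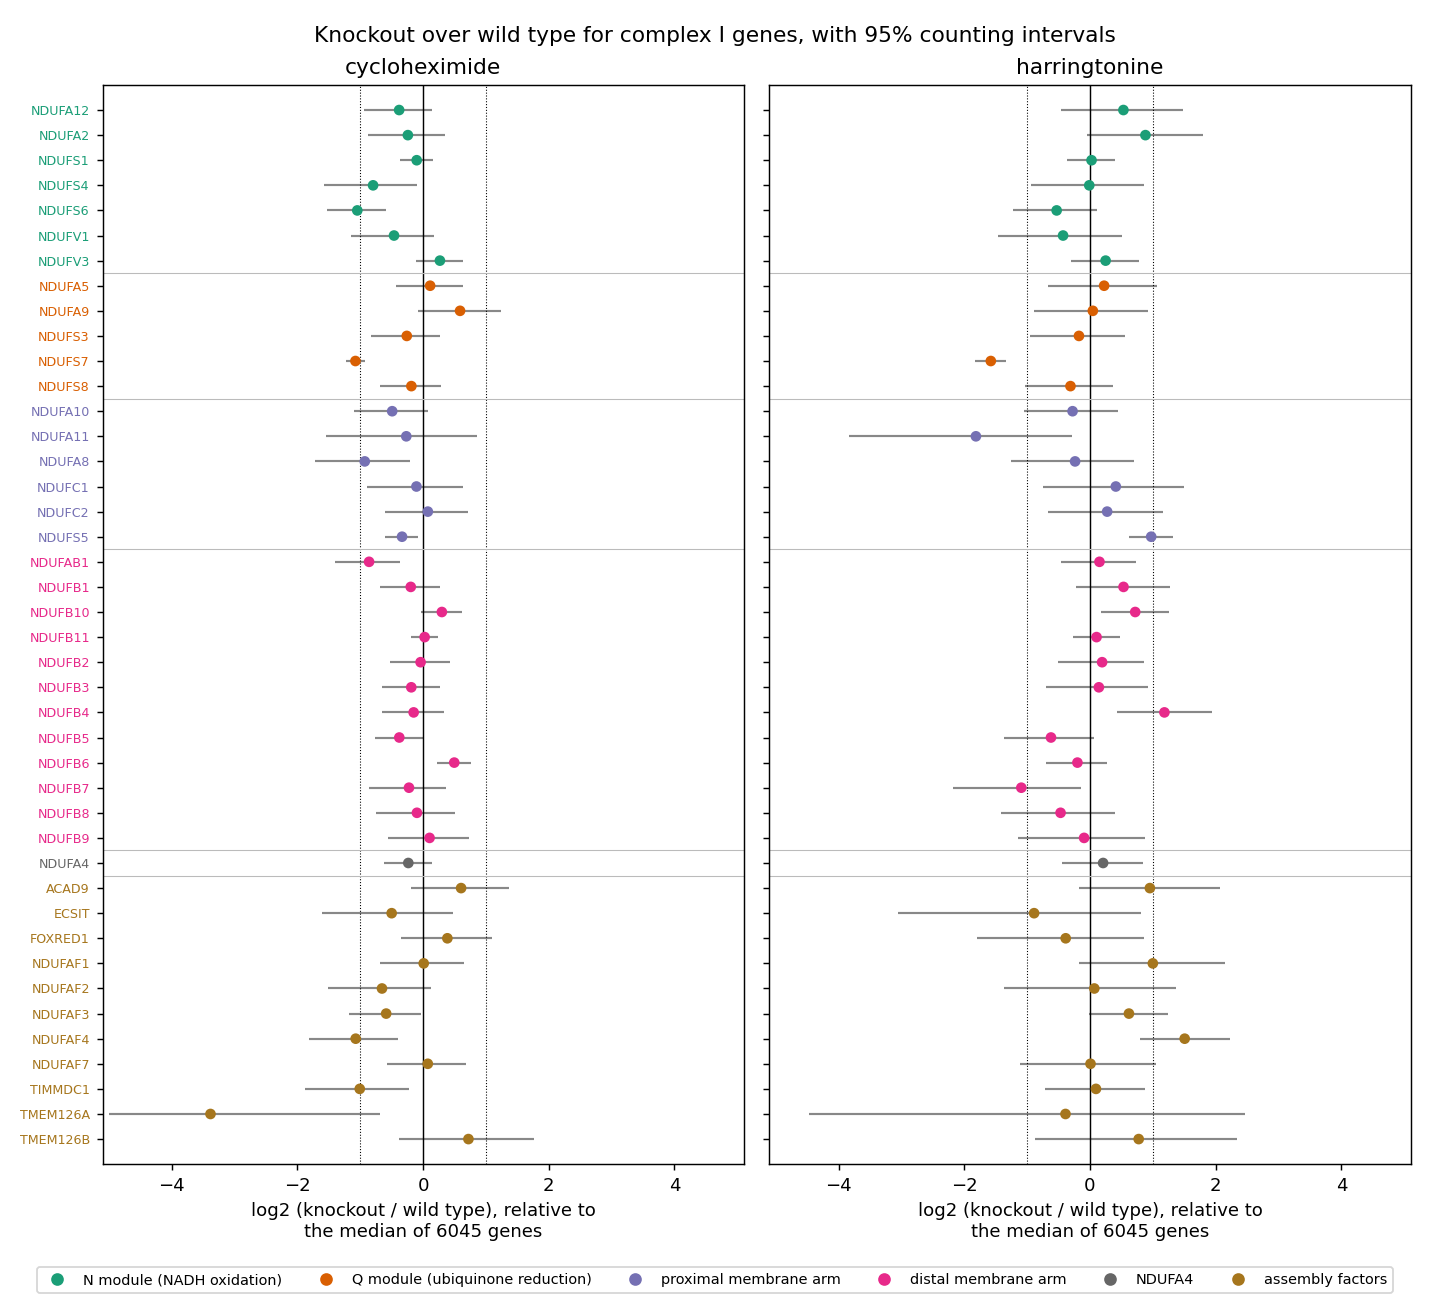
Log2 ratio of knockout over wild type for 42 of the 43 compared complex I genes, relative to the median of 6045 genes, with cycloheximide (left) and harringtonine (right); lines are 95% counting intervals, dotted lines mark 2-fold, colours give the role, and the lower end of the interval of TMEM126A with cycloheximide, at -9.22, lies off the axis. NDUFS7 is left of the 2-fold line in both panels with a narrow interval, and NDUFAF4 is at -1.07 on the left and 1.51 on the right.

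In the proximal membrane arm 5 of 6 compared genes lay below the median gene with cycloheximide and 3 of 6 with harringtonine, with medians of -0.30 and 0.02. Centred on genes of like level the medians were -0.24 and 0.083. NDUFS5 had densities of 6.15 in the knockout and 10.5 in wild type with cycloheximide, a relative ratio of -0.33 (-0.60 to -0.07). With harringtonine it had 12.1 in the knockout and 7.53 in wild type, a relative ratio of 0.97 (0.62 to 1.33). Relative to the median gene the knockout was thus on the low side with one drug and on the high side with the other, both beyond counting error. When NDUFS5 was centred on genes of like level, its ratios were -0.11 with cycloheximide and 1.09 with harringtonine. The cycloheximide ratio was then closer to genes of like level than to the median gene, and no interval was computed for it. NDUFA8, another intermembrane-space subunit, had 0.416 in the knockout and 1.08 in wild type with cycloheximide, at -0.93 (-1.72 to -0.21), and was at -0.24 with harringtonine. NDUFA11, a membrane subunit that touches complex III in the supercomplex, had 0.0836 in the knockout and 0.358 in wild type with harringtonine, at -1.81 (-3.84 to -0.29). This rests on 3.81 effective reads in the knockout. With cycloheximide NDUFA11 had 0.0793 in the knockout and 0.130 in wild type, at -0.27 (-1.55 to 0.85).

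In the distal membrane arm 8 of 12 genes lay below the median gene with cycloheximide, with a median of -0.12. Centred on genes of like level, 2 lay below and 10 above, with a median of 0.08. NDUFAB1, the mitochondrial acyl carrier protein, was the lowest, with 0.965 in the knockout and 2.38 in wild type, at -0.86 (-1.39 to -0.36). NDUFB6 was the highest, with 2.71 in the knockout and 2.61 in wild type, at 0.50 (0.22 to 0.76). NDUFB11, an accessory subunit encoded on the X chromosome and one of the most densely read genes, had 3.93 in the knockout and 5.25 in wild type, at 0.03 (-0.19 to 0.24). NDUFB10, also among the most deeply read, had 2.61 in the knockout and 2.88 in wild type, at 0.30 (-0.03 to 0.62).

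Of the other distal arm genes, NDUFB5 was on the low side in all comparisons. It had 0.396 in the knockout and 0.699 in wild type with cycloheximide, at -0.38 (-0.77 to -0.0014), and 0.292 in the knockout and 0.546 in wild type with harringtonine, at -0.62 (-1.37 to 0.07). NDUFB8 had 0.533 in the knockout and 0.775 in wild type with cycloheximide, at -0.097 (-0.74 to 0.51), and 0.642 in the knockout and 1.08 in wild type with harringtonine, at -0.47 (-1.41 to 0.39). The cycloheximide densities of NDUFB4 were 0.729 in the knockout and 1.10 in wild type, at -0.15 (-0.65 to 0.33). Those of NDUFB7 were 1.26 in the knockout and 2.00 in wild type, at -0.22 (-0.86 to 0.37).

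With harringtonine the distal arm median was 0.12, or 0.24 when centred on genes of like level, and the arm held a gene at least 2-fold away on each side. NDUFB4 had 1.17 in the knockout and 0.629 in wild type, at 1.18 (0.43 to 1.93), and NDUFB7 had 1.09 in the knockout and 2.84 in wild type, at -1.09 (-2.18 to -0.14). NDUFB10 was also above the median gene beyond counting error, with 2.86 in the knockout and 2.12 in wild type, at 0.72 (0.18 to 1.25). NDUFB11 stayed close to it, with 3.43 in the knockout and 3.88 in wild type, at 0.10 (-0.27 to 0.47). NDUFB6 had 1.98 in the knockout and 2.77 in wild type, at -0.20 (-0.69 to 0.27), and NDUFAB1 had 2.18 in the knockout and 2.39 in wild type, at 0.15 (-0.46 to 0.74). NDUFA4, named for complex I but known as a subunit of complex IV, was at -0.23 with cycloheximide and 0.21 with harringtonine, with 0 inside both intervals.

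The assembly factors were the most spread group. With cycloheximide 6 of 11 lay below the median gene, with a median of -0.50, and they held 3 of the 5 genes lower by at least 2-fold. With harringtonine 3 of 11 lay below, with a median of 0.10, and centred on genes of like level the medians were -0.39 and 0.22. NDUFAF4, which pairs with NDUFAF3 in building the Q module, had 0.189 in the knockout and 0.539 in wild type with cycloheximide, at -1.07 (-1.82 to -0.39). With harringtonine NDUFAF4 had 0.853 in the knockout and 0.365 in wild type, at 1.51 (0.79 to 2.23), the highest ratio of any complex I gene. It was the only one lower by at least 2-fold with cycloheximide and higher by at least 2-fold with harringtonine, a pattern found in 0.38% of all genes. Its partner NDUFAF3 had 0.362 in the knockout and 0.739 in wild type with cycloheximide, at -0.59 (-1.18 to -0.03). With harringtonine NDUFAF3 had 0.997 in the knockout and 0.790 in wild type, at 0.62 (-0.01 to 1.24). NDUFAF2, which acts late in assembly, had 0.518 in the knockout and 1.11 in wild type with cycloheximide, at -0.65 (-1.51 to 0.12), and 0.578 in the knockout and 0.671 in wild type with harringtonine, at 0.07 (-1.37 to 1.37).

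TMEM126A and TMEM126B are neighbouring related genes on chromosome 11 that encode membrane proteins of different assembly steps. TMEM126A had 0.0271 in the knockout and 0.385 in wild type with cycloheximide, at -3.38 (-9.22 to -0.69), the lowest ratio of all 6045 genes. It rests on 0.904 effective reads in the knockout and 29.1 in wild type. With harringtonine TMEM126A had 0.109 in the knockout and 0.174 in wild type, at -0.39 (-4.47 to 2.47). TMEM126B had 0.203 in the knockout and 0.167 in wild type with cycloheximide, at 0.72 (-0.39 to 1.76), which was the highest complex I ratio with that drug. With harringtonine it had 0.264 in the knockout and 0.188 in wild type, at 0.78 (-0.87 to 2.35). The sources used here do not give how reads shared by related genes were assigned.

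TMEM126B, TIMMDC1, ACAD9, ECSIT and NDUFAF1 encode the complex that assembles the proximal membrane arm, and their ratios did not share a direction. TIMMDC1 had 0.144 in the knockout and 0.393 in wild type with cycloheximide, at -1.01 (-1.88 to -0.23), and 0.465 in the knockout and 0.530 in wild type with harringtonine, at 0.10 (-0.72 to 0.87). ACAD9, also an acyl-CoA dehydrogenase, had 0.203 in the knockout and 0.181 in wild type with cycloheximide, at 0.61 (-0.19 to 1.36), and 0.301 in the knockout and 0.189 in wild type with harringtonine, at 0.95 (-0.18 to 2.06). ECSIT, also known from immune signalling, had 0.140 in the knockout and 0.269 in wild type with cycloheximide, at -0.50 (-1.61 to 0.48). With harringtonine ECSIT had 0.112 in the knockout and 0.252 in wild type, at -0.89 (-3.06 to 0.81), on 3.60 effective reads in the knockout. NDUFAF1 had 0.444 in the knockout and 0.270 in wild type with harringtonine, at 1.00 (-0.17 to 2.15), and 0.373 in the knockout and 0.503 in wild type with cycloheximide, at 0.011 (-0.68 to 0.66). FOXRED1, an oxidoreductase-like assembly factor outside that complex, had 0.179 in the knockout and 0.186 in wild type with cycloheximide, at 0.39 (-0.36 to 1.09), and 0.130 in the knockout and 0.206 in wild type with harringtonine, at -0.39 (-1.80 to 0.85).

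Start-site sequence was examined because many nuclear genes of the respiratory chain are known targets of NRF1 and of ETS-family factors. Promoters came from RefSeq (GRCh38.p14), where 42 of the 51 genes matched, and the 250 bases before each start were searched on both strands. The ETS-type motif CCGGAAG was in 8 of the 42 (19.0%), beside 8.82% of 27305 promoters and 19.3% of those of the compared genes. The NRF1-type motif, whose letters stand in capitals in the NDUFB4 window below, was in NDUFB4 only (2.38%), beside 1.13% of all promoters and 2.46% of compared genes, and the YY1-type motif AAGATGGCG was in 0 of 42, beside 0.641% and 1.04%. The shares of complex I genes were thus close to those of the compared genes. The windows are shown for the genes that hold a match and were at least 2-fold lower or higher in a knockout comparison, with the motif, or its reverse complement, in capitals, in the orientation of the gene. They lie at chr6:96898020-96898049 (minus strand) for NDUFAF4, chr3:119498414-119498443 and chr3:119498460-119498489 (both plus) for TIMMDC1, chr11:85647872-85647901 (plus) for TMEM126A, chr19:14572072-14572101 (minus) for NDUFB7 and chr3:120596167-120596196 (plus) for NDUFB4. A match is a description of letters and not a bound site, and no transcription was measured here.
NDUFAF4: gccacctcccgCCGGAAGcggccctcgtgg
TIMMDC1, farther from the start: cagccaactcaCTTCCGGgggtgcactcag
TIMMDC1, nearer to the start: cccgccctcaaCCGGAAGtcttttgggctc
TMEM126A: acctcctagggCCGGAAGcttctcagccca
NDUFB7: gcctaaatgacCCGGAAGctgtgtctgact
NDUFB4: agagcacttcGCGCATGCGCatatcaccga

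With harringtonine the complex I genes as a group did not lie to one side of the median gene. Of the 43 genes 18 lay below it, where 50% of all genes do, and 25 above, with a median of 0.07. NDUFA11, NDUFS7 and NDUFB7 were lower by at least 2-fold, 3 genes beside 6.58% of all genes. NDUFAF4, NDUFB4 and NDUFAF1 were higher by that much, 3 genes beside 6.72%. The interval lay below 0 for 3 genes, beside 10.6% of all genes, and above 0 for NDUFAF4, NDUFB4, NDUFS5 and NDUFB10, 4 genes beside 7.91%. The counts are near the background, and the knockout with harringtonine is a single library. The sign of the median is not settled, since it was -0.016 over all genes with 4 means above 0 and -0.023 with a pseudocount of 1.

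Set side by side, 15 of the 43 genes (34.9%) lay below the median gene with both drugs, beside 28.4% of all genes, and 10 (23.3%) lay above it with both, also beside 28.4%. A further 15 (34.9%) lay below with cycloheximide and above with harringtonine, beside 21.6% of all genes. Only FOXRED1, NDUFB6 and NDUFB9, 3 genes (6.98%), showed the opposite order, beside 21.6%. Across the 43 genes the cycloheximide and harringtonine ratios had Pearson's r of 0.23 and Spearman's rho of 0.31, beside 0.11 and 0.15 over the 6045 genes. The points of each axis share libraries, so these values are descriptions.

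**Figure D3:**
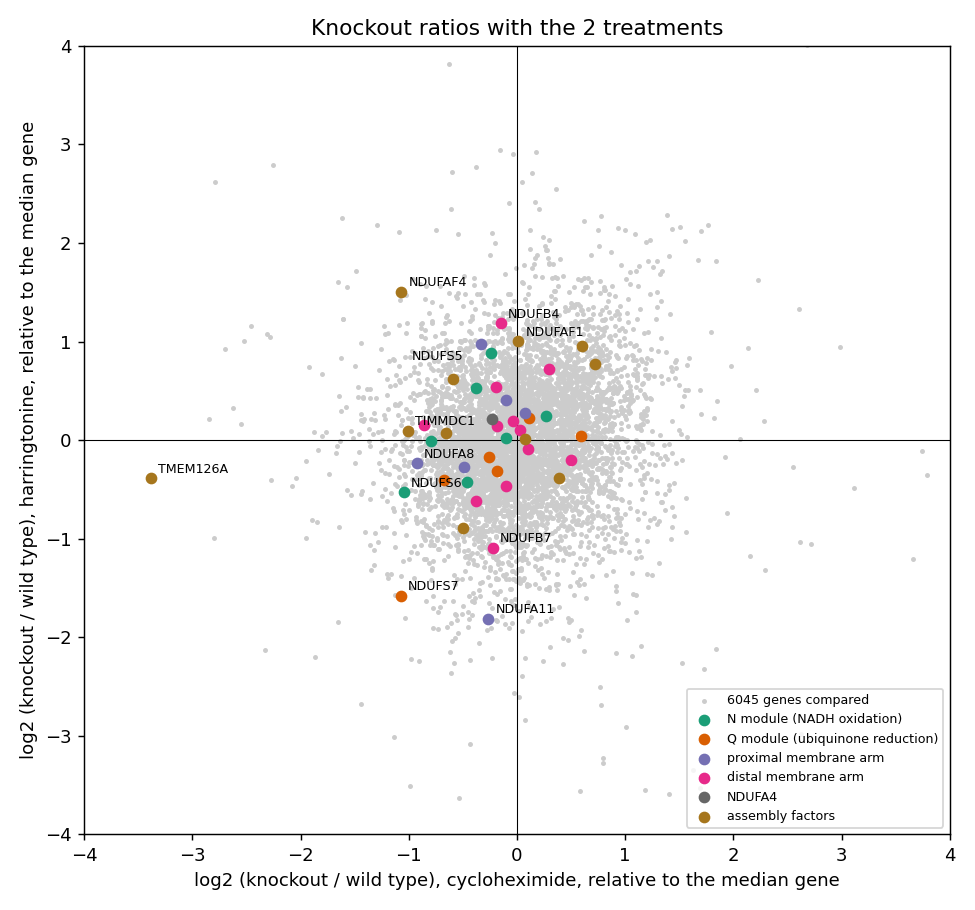
Log2 knockout over wild type with harringtonine (vertical) against cycloheximide (horizontal), each relative to the median gene; coloured points are the 43 complex I genes by role, grey points the other genes compared, and both axes end at -4 and 4. NDUFS7 is low on both axes, NDUFAF4 is at the upper left, and 15 complex I genes lie at the upper left of the crossed zero lines, and 3 at the lower right.

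The difference between the drugs was taken per gene as the harringtonine ratio minus the cycloheximide ratio. Its median was 0.23 for the complex I genes, with 30 above 0 and 13 below. For all 6045 genes the median was 0.01, with 3058 above 0 and 2987 below. The difference was at least 2-fold above 0 for 8 complex I genes (18.6%), beside 9.41% of all genes. It was at least 2-fold below 0 for NDUFA11 only (2.33%), beside 10.7%. Its counting interval lay above 0 for NDUFAF4, at 2.58 (1.63 to 3.53), for NDUFB4, at 1.33 (0.49 to 2.18), for NDUFS5, at 1.31 (0.88 to 1.74), and for NDUFAF3, NDUFA2, TIMMDC1 and NDUFAB1, between 1.01 and 1.21. It lay below 0 for NDUFS7, at -0.50 (-0.79 to -0.22), and NDUFB6, at -0.70 (-1.23 to -0.16). In all, the interval lay above 0 for 7 of the 43 complex I genes and below 0 for 2, beside 598 and 528 of the 6045 genes. TMEM126A had the largest difference, 2.99, with an interval of -1.02 to 7.003.

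Complex I genes with short transcripts differed more between the drugs. The 22 genes with a listed transcript of at most 1666 bases had a median difference of 0.60 and 18 of them were above 0, and the 21 longer ones had a median of 0.08 with 12 above 0. Over all genes split at the same length the medians were 0.20 for the shorter and -0.02 for the longer. Of these, 531 of the 886 shorter and 2527 of the 5159 longer were above 0. Length and the difference had a Spearman's rho of -0.42 over the 43 genes and -0.08 over all genes. The part of transcript length in the result was not tested.

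The effect of the drug was also read within each genotype, as log2 of harringtonine over cycloheximide minus the median gene. These ratios use the same group means as those above and are no separate support for them. In the knockout 20 of the 43 genes lay below the median gene and 23 above, beside 50% of all genes below, with a median of 0.05. There 0 genes were lower by at least 2-fold, beside 6.82% of all genes, and 4 were higher, beside 5.51%. These were the assembly factors NDUFAF4 at 1.90 (1.09 to 2.75), TMEM126A at 1.73 (-3.23 to 8.22), TIMMDC1 at 1.42 (0.40 to 2.46) and NDUFAF3 at 1.19 (0.48 to 1.91). The next highest was NDUFAB1, at 0.90 (0.21 to 1.59). The lowest were FOXRED1 at -0.74 (-2.15 to 0.49), NDUFB6 at -0.73 (-1.21 to -0.27), NDUFB5 at -0.72 (-1.47 to -0.014), ECSIT at -0.60 (-2.84 to 1.22) and NDUFS7 at -0.53 (-0.81 to -0.26). The interval lay below 0 for 4 genes, beside 6.4% of all genes, and above 0 for 6, beside 8.95%.

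In wild type the complex I genes lay mostly below the median gene with harringtonine, 29 of 43, beside 50% of all genes, with a median of -0.11. TMEM126A at -1.26 (-3.05 to 0.16), NDUFA12 at -1.13 (-1.79 to -0.53) and NDUFAF1 at -1.01 (-1.89 to -0.22) were lower by at least 2-fold, 3 genes beside 3.31%. NDUFA12, an accessory subunit of the N module, had 0.883 with harringtonine and 1.79 with cycloheximide in wild type, and 1.05 with harringtonine and 1.01 with cycloheximide in the knockout. Its knockout ratios were -0.38 (-0.94 to 0.15) with cycloheximide and 0.53 (-0.46 to 1.48) with harringtonine. The next lowest were NDUFB4 at -0.92 (-1.50 to -0.37) and NDUFAF2 at -0.84 (-1.68 to -0.07). NDUFA11, with 0.358 with harringtonine and 0.130 with cycloheximide, was the 1 gene higher by that much, at 1.35 (0.60 to 2.11), beside 3.41%. NDUFA9 at 0.61 (-0.02 to 1.22), NDUFB7 at 0.39 (-0.10 to 0.88) and NDUFB8 at 0.37 (-0.16 to 0.88) were also among the 5 highest. The interval lay below 0 for 13 genes, beside 11% of all genes, and above 0 for 2, NDUFA11 among them, beside 15.7%. In wild type 9 of the 12 distal arm genes and 8 of the 11 assembly factors lay below the median gene.

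Other nuclear genes of mitochondrial function gave a frame for these values. Of the subunits of complexes II to V, 31 of 36 lay below the median gene with cycloheximide, with a median of -0.29, and 12 of 36 with harringtonine, with a median of 0.33. Centred on genes of like level these medians were -0.07 and 0.44. The mitochondrial ribosomal proteins, 67 genes, had medians of -0.12 with cycloheximide and -0.11 with harringtonine, and of -0.0028 and -0.032 when centred on genes of like level. For complex I factors outside the symbol rule, 7 genes, the medians were -0.15 and 0.08, and -0.080 and 0.062 when so centred. No difference between these lists was tested.

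**Figure D4:**
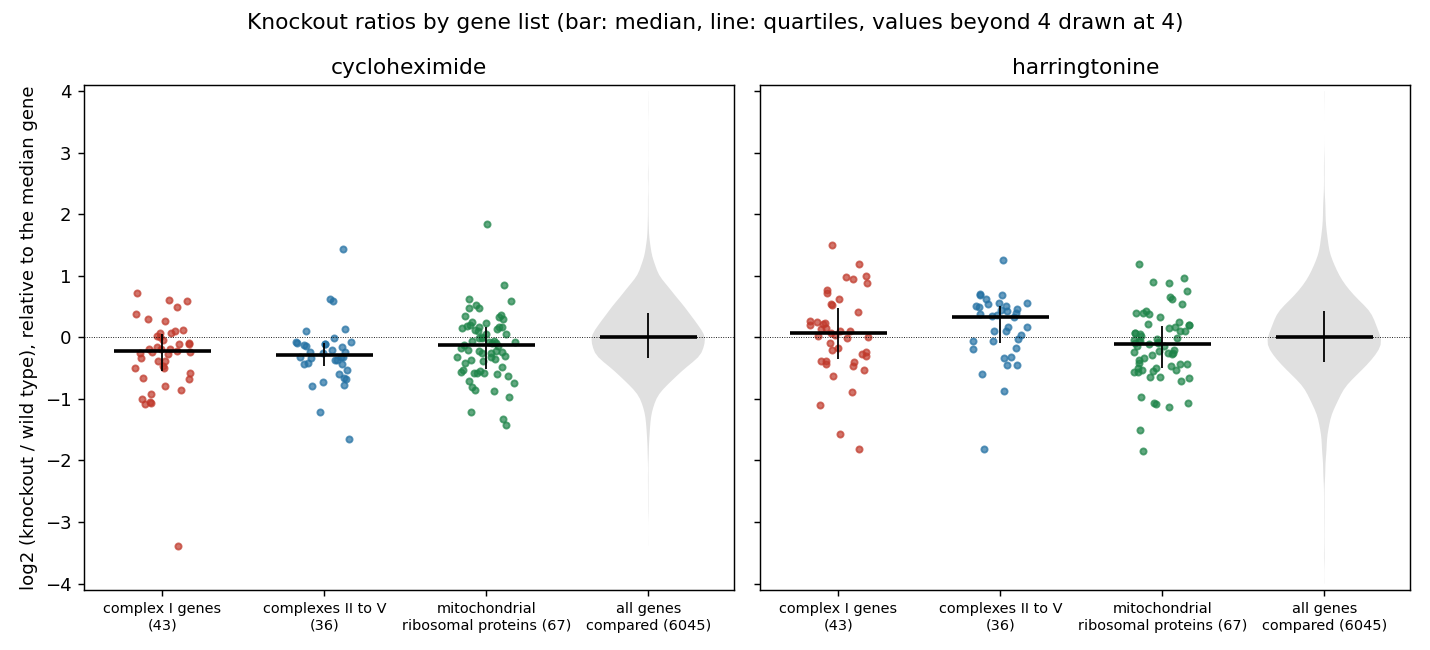
Log2 knockout over wild type relative to the median gene for the 43 complex I genes, 36 subunits of complexes II to V, 67 mitochondrial ribosomal proteins and all 6045 genes compared, with cycloheximide (left) and harringtonine (right); each point is a gene, thick bars are medians, thin lines quartiles, the grey shape is the distribution over all genes, and values beyond 4 are drawn at 4. The complex I median is -0.22 on the left and 0.07 on the right, and that of complexes II to V is -0.29 and 0.33.

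Of the 7 mitochondrially encoded partners, which cytosolic ribosomes do not make, 3 could be compared, and all 3 lay above the median gene with harringtonine, with intervals above 0. MT-ND4 had 5.58 in the knockout and 3.62 in wild type with cycloheximide, at 1.07 (0.87 to 1.27), and 4.47 in the knockout and 3.10 in wild type with harringtonine, at 0.81 (0.45 to 1.17). MT-ND5 had 11.05 in the knockout and 8.67 in wild type with cycloheximide, at 0.79 (0.67 to 0.91), and 8.54 in the knockout and 5.74 in wild type with harringtonine, at 0.86 (0.63 to 1.08). MT-ND6 went the other way with cycloheximide, with 6.31 in the knockout and 49.2 in wild type, at -2.52 (-2.77 to -2.28), and had 37.6 in the knockout and 22.9 in wild type with harringtonine, at 1.00 (0.80 to 1.204). MT-ND1 and MT-ND2 were listed at 0 in the knockout with harringtonine and at 0.944 and 1.33 in wild type. With cycloheximide both were also on the low side. MT-ND1 had 0.603 in the knockout and 0.987 in wild type, at -0.27 (-0.95 to 0.37). MT-ND2 had 0.368 in the knockout and 1.06 in wild type, at -1.08 (-1.91 to -0.35).

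The authors' deposited table also holds a value named TE beside its log ratio for each drug, both in the direction of wild type over knockout, and its header does not expand the name. In the authors' deposited table TE minus the log ratio was the same for both drugs in all 12241 rows with both. For the complex I genes in the authors' deposited table this difference had a median of 0 and ran from -0.74 for NDUFS6 to 0.41 for TMEM126A. It was within 0.5 of 0 for 42 of 43 genes, beside 5866 of the 6045 genes compared, a similar share.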

How the data were processed

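Mean ribosome footprint densities per gene in 4 groups of HEK293 libraries (12 samples) were used. The density is a signal per gene deposited by the authors as 1 mean per group, and its scale is not stated. The knockout densities are the same deposited signal, entered as another kind of value since some of their cells hold spreadsheet errors. The authors' deposited log ratios and TE are entered as a score for the same reason, and their values fit a log2 scale. TopHat and the build hg19 are named per the submitters' processing notes. The sources used here do not give how reads were counted or on which annotation.

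Set aside were 918 rows without a knockout value, 290 on alternate sequences and 175 whose log ratio differed from that of the means by more than 1e-06. Of 12091 genes with all 4 means above 0, the 6045 above the median level were compared, without a pseudocount. Effective reads are density times listed transcript length over the mean step per read found at low values. The listed length turned the single-library column into whole reads for 5.52% of 12981 genes, while a searched length did so for 84.9%, at a median of 1.24 times the listed one. That search tried longer lengths before shorter ones, so it cannot show whether the listed lengths are too short. Effective reads from the listed length are therefore approximate, and whether they are too few or the intervals too wide is not settled. Ratios of single genes do not use the length, while the summed ratio and the shares of reads do. For a difference between drugs, both ratios' counting errors were combined under a normal approximation. The steps were tested on simulated data.

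The members and lists were chosen with earlier results of these data known. The rule for named genes took genes past 2-fold in a knockout comparison, those with at least 100 effective reads in both cycloheximide groups, the 5 lowest and highest of each comparison and the assembly factors named by the rule. Counts and medians include 1 compared gene that is not reported here by name. Alternatives were other centrings, filters, a pseudocount, a 1.5-fold threshold and the searched length. Python 3.11.15, pandas 2.3.3, numpy 2.4.6, scipy 1.17.1 and matplotlib 3.10.9 were used.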

Additional observations from a re-analysis of the deposited data

How the results depend on the processing

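No paired analysis was possible because the table holds only group means, and leaving out a replicate was not run for the same reason. Counts below are of complex I genes at least 2-fold lower or higher. Percentages in brackets are the shares of all genes called in the same setting. Medians are relative log2 ratios, except without centring, where the median of all genes was not subtracted. Leaving it out moves every ratio by a constant. Where values moved or turned in other settings, the cause was not tested.

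For knockout over wild type with cycloheximide, the median of -0.22 was -0.67 without centring, where that of all genes was -0.44. It stayed below 0 in every other alternative run. It was -0.052 with level-matched centring and -0.31 over all genes with 4 means above 0. At a level of at least 1 it was -0.055, and it was -0.064 where both groups had 50 or more effective reads. The count of 5 lower genes (3.24%) was 11 (13.96%) without centring and 1 (3.94%) with level-matched centring. It was 0 (0.294%) at a level of at least 1 and 1 (0.219%) with at least 50 effective reads. With a pseudocount of 1 it was 1 (0.0496%), and at 1.5-fold it was 11 (12.8%), where 3 (15.8%) were higher.

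For knockout over wild type with harringtonine, the median of 0.07 was -0.22 without centring, where that of all genes was -0.28. It turned to -0.016 over all genes with 4 means above 0 and -0.023 with a pseudocount of 1. At a level of at least 1 it was 0.24. The 3 higher genes (6.72%) became 1 (3.14%) without centring, 5 (7.68%) with upper-quartile scaling and 1 (3.48%) with at least 50 effective reads. With the pseudocount they became 0 (0.0827%), and at 1.5-fold 9 (17.8%). The 3 lower genes (6.58%) became 1 (3.24%) at a level of at least 1 and 1 (2.14%) with at least 50 effective reads. With the pseudocount they became 1 (0.414%), and at 1.5-fold 5 (17.1%).

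For harringtonine over cycloheximide in the knockout, the median of 0.05 was 0.32 without centring, where that of all genes was 0.27. It turned to -0.043 with level-matched centring, -0.31 at a level of at least 1 and -0.51 with at least 50 effective reads. The 4 higher genes (5.51%) became 0 (1.76%) at a level of at least 1 and 0 (1.21%) with at least 50 effective reads. With the pseudocount they became 0 (0.199%), and at 1.5-fold 8 (15.4%). The count of 0 lower (6.82%) became 1 (12.1%) over all genes with 4 means above 0 and 4 (16.7%) at 1.5-fold. In wild type the median of -0.11 was -0.00079 without centring, where that of all genes was 0.11. It was -0.44 at a level of at least 1, -0.25 with at least 50 effective reads and -0.024 with the pseudocount. There the 3 lower genes (3.31%) became 1 (2.94%) at a level of at least 1 and 0 (1.40%) with at least 50 effective reads. With the pseudocount they became 0 (0.0662%), and at 1.5-fold 11 (12.4%). The 1 higher gene (3.41%) became 0 (5.74%), 0 (3.67%) and 0 (0.629%) in the same settings, and 2 (11.2%) at 1.5-fold.

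A level of at least 1 left 12 complex I genes. At least 50 effective reads left 11 for knockout over wild type with cycloheximide and 6 with harringtonine. For harringtonine over cycloheximide it left 18 in wild type and 6 in the knockout. Such small numbers by themselves lower the counts. With the searched length, an alternative chosen after seeing the data, intervals below and above 0 numbered 13 and 2 for knockout over wild type with cycloheximide, against 12 and 1 with the listed length. With harringtonine they numbered 5 and 5, against 3 and 4. How many of all genes had such intervals with the searched length was not counted.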
